A study of Homo sapiens with 4 samples.

Results

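RNA from LNCaP cells with stable silencing of MAOA was compared with RNA from LNCaP cells carrying a control hairpin. The comparison used 2 of the 4 libraries of the series, 1 per group, and the members were the 13787 genes of 25343 in the LNCaP table whose mean level over both libraries was at least 1 on the deposited CPM scale (read counts relative to library size, after the authors' scaling). LNCaP is an androgen-responsive human prostate cancer line that was established from a lymph node metastasis. Both groups were grown in RPMI 1640 with 10% fetal bovine serum and penicillin with streptomycin, and neither received the antiandrogen enzalutamide. The knockdown group was infected with a lentivirus whose hairpin targets the coding region of MAOA, the control group with one whose hairpin has no target, and both were then selected with an antibiotic, per the labels' protocols. The labels name a single hairpin per group and no cloning step, so each library stands for a selected population, and no hairpin sequence is printed because the labels give none. The other 2 libraries come from C4-2B ENZR, a related enzalutamide-resistant line kept in 20 µM of the drug, with its own control and knockdown groups, and they serve below for side by side values only. The comparison asks which transcripts differ when monoamine oxidase A is depleted in prostate cancer cells that respond to androgen.

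MAOA encodes monoamine oxidase A, an enzyme of the outer mitochondrial membrane that deaminates serotonin, noradrenaline and dopamine and gives off hydrogen peroxide, an aldehyde and ammonia. In the prostate it is an epithelial enzyme, and it has been studied in prostate cancer for its links to redox state, hypoxia signalling and androgen signalling. Among the programmes followed here, ATF4 is the transcription factor that cells use to answer amino acid shortage and other stress on translation, p53 is the factor that answers DNA damage and growth stress, and the replication and mitosis genes are made mostly in cycling cells.

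The targeted gene was examined first. MAOA was at 445 in the control library and 139.5 in the knockdown library, from 25281 and 6818 reads. The knockdown level was therefore 31.3% of the control level as deposited and 28.5% after the centring described below (centred log2 ratio -1.802, 95% counting interval -1.85 to -1.77), so the library labelled as knockdown held less MAOA RNA than its control and still retained a measurable share of it. MAOB, the other monoamine oxidase gene, had 8 and 3 reads. In C4-2B ENZR the centred log2 ratio of MAOA was -0.57.

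The 2 LNCaP libraries held 52550452 reads (control) and 52012696 reads (knockdown), so that 3 reads, the upper limit left by a count of 0, correspond to levels of 0.0529 and 0.0614. Markers of luminal prostate cells were present in both libraries. All 12 of 12 such markers passed the filter and together they summed to 8230 in the control and 8932 in the knockdown, with KLK3, the gene of prostate-specific antigen, at 2391 and 2716, FOLH1, which encodes prostate-specific membrane antigen, at 732 and 731 and the luminal keratin gene KRT8 at 619 and 659.95. Of 5 markers of basal prostate cells only KRT14 passed (1.11 and 1.08) and TP63 had no reads in either library. Of 9 fibroblast and endothelial markers 4 passed, with COL1A1 at 54.2 and 60.9 and VWF at 13.7 and 16.1, while COL1A2, DCN and LUM had no reads. Of 6 blood markers LYZ alone passed (2.78 and 4.32), and of 6 neuroendocrine markers SYP alone (2.03 and 2.23).

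The deposited values of the knockdown library sat above those of the control for most genes. The median log2 ratio, taken as log2 of (knockdown + 1)/(control + 1), was 0.13 among 9924 genes with a mean level of at least 10, which is a factor of 1.10, and this shift was subtracted from every ratio. Ratios given from here on are these centred log2 ratios, they understate differences of genes at low level because of the added 1, and levels are given as control and then knockdown on the deposited CPM scale. Levels are not scaled by gene length and are compared between libraries only, never between genes. After centring, the median over all 13787 genes was -0.02, a central 50% of genes lay between -0.20 and 0.15, and 90% between -0.52 and 0.45. Of all these genes 46.7% lay above 0, the share to set beside each count of list members above or below 0. With 1 library per group there is no replicate check: nothing here was tested against the spread between cultures, and the counting intervals, computed from reads without the added 1, cover counting error only.

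By these ratios 322 genes were at least 1.5-fold higher in the knockdown library (2.34% of the genes measured) and 460 at least 1.5-fold lower (3.34%). At least 2-fold higher were 48 genes (0.348%) and at least 2-fold lower 58 (0.421%). For all 782 genes past 1.5-fold the counting interval excluded equal levels. The genes were picked from the same reads, with the added 1 and the filter, so this is no separate support for them. The balance of higher and lower genes depended on the scaling: without centring 687 genes were 1.5-fold higher (4.98%) and 216 lower (1.57%), and 80 were 2-fold higher (0.58%) and 35 lower (0.254%). Of the 106 genes past 2-fold after centring, 17 belong to families with near-identical copies or to readthrough loci. The member nearest to the 2-fold threshold from inside was GEMIN5 at -1.01 and from outside BIRC3 at 0.99.

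**Figure D1:**
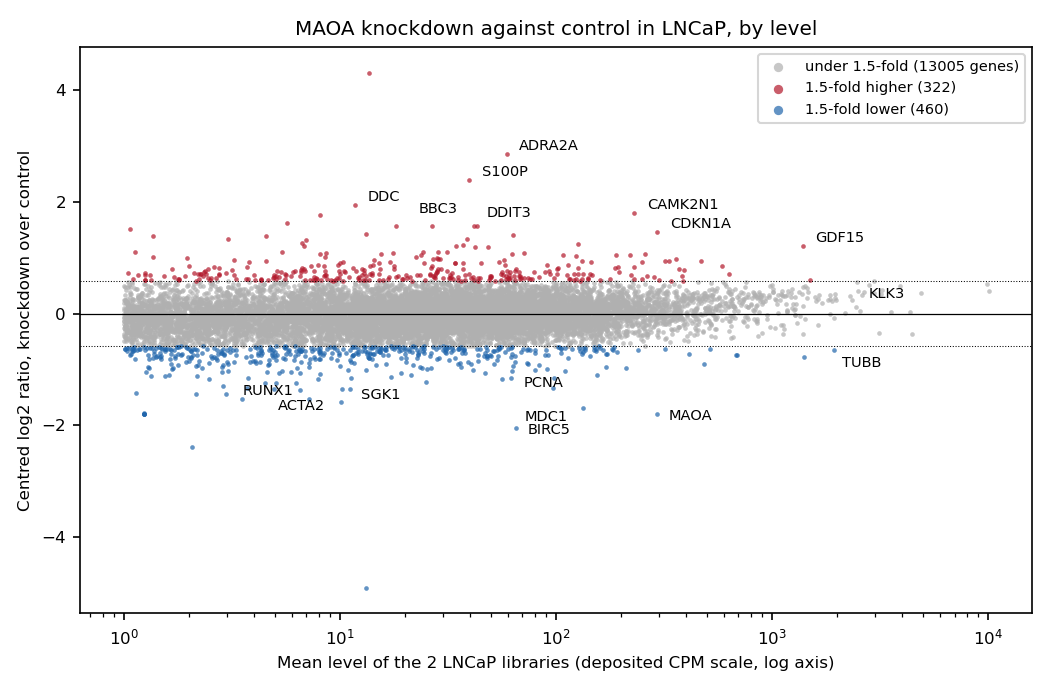
Centred log2 ratio of the knockdown over the control library (vertical axis) against the mean level of both LNCaP libraries on the deposited CPM scale (log axis), 1 point per gene for 13787 genes. The 322 red points lie at least 1.5-fold above and the 460 blue points at least 1.5-fold below, dotted lines mark 1.5-fold, and MAOA sits at -1.80.

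Among genes with a mean level of at least 5 and a sequence of their own, an adrenergic receptor gene had the highest ratio. ADRA2A, which encodes the alpha-2A adrenergic receptor that is activated by noradrenaline and lowers cyclic AMP, was at 12.4 and 106 (706 and 5169 reads), a ratio of 2.86 with a counting interval of 2.84 to 3.07. DDC, which encodes the decarboxylase that makes dopamine and serotonin, was at 3.88 and 19.7 (1.95, interval 1.996 to 2.43). PDE2A, a cyclic nucleotide phosphodiesterase gene, was at 3.401 and 10.2 (1.22). Genes that act on monoamines or their receptors were thus among the extremes, but most of their families were not. Of the 7 measured receptors of the adrenergic and cyclic AMP list 1 was past 1.5-fold (14.3%, against 2.34% of all genes). ADRA2C, a sister alpha-2 receptor gene, was at 4.67 and 5.94 (0.16). Over the 32 measured members of that list the median was 0.03, and 3 were 1.5-fold higher (9.4%, against 2.34% of all genes). These were ADRA2A, PDE2A and the clock and cyclic AMP response gene PER1 (0.67). PDE3B, a phosphodiesterase gene, was lower (18.2 and 12.8, -0.61), which is 3.1% of the list against 3.34% of all genes. None of the 12 cyclase, G protein and protein kinase A genes passed 1.5-fold, with ADCY9, an adenylyl cyclase gene, lowest (-0.56). Of 21 measured enzymes and transporters of monoamines (32 listed), only DDC, higher, and the targeted gene MAOA, lower, passed 1.5-fold. Each is 4.76% of the list, against 2.34% higher and 3.34% lower over all genes, and the median was 0.09. ALDH2, a mitochondrial enzyme that clears aldehydes such as those made by monoamine oxidases, was at 54.4 and 82.4 (0.45). TH, TPH1, TPH2 and DBH, the other synthesis enzymes of dopamine, serotonin and noradrenaline, did not pass the filter on low values.

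Calcium-binding proteins and their partners were also at the extremes, in both directions. S100P, a small calcium-binding protein made by many carcinomas, was at 11.1 and 68.4 (2.39, interval 2.37 to 2.62). S100A10, its family member that binds annexin A2, was lower at 14.8 and 5.79 (-1.35), and S100A11 was at 156 and 110.5 (-0.63). CAMK2N1, which encodes an inhibitor of calcium/calmodulin-dependent kinase II, was at 95.5 and 367 (1.79), and CAMK2D, a subunit gene of that kinase, at 9.04 and 22.1 (1.07). The other 6 measured members of the CaM kinase II list, CAMK2G, CAMK2B, CAMK2N2 and the 3 calmodulin genes, lay between -0.10 and 0.20. The 9 measured genes of the S100 list, of 16 listed, had a median of 0.01, with 1 past 1.5-fold upward and 2 downward (2.34% and 3.34% over all genes).

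The other extremes encode proteins of varied roles, some of them in signalling or at the cell surface. Higher were PLA2G2A, a secreted phospholipase gene (2.06 and 9.37, 1.63), SDC4, the heparan sulfate proteoglycan syndecan-4 (69.9 and 183, 1.24), DUSP5, a phosphatase that acts on ERK (3.21 and 10.1, 1.27), PIK3IP1, an inhibitor of phosphoinositide 3-kinase (20.5 and 54.2, 1.23), SIPA1L2 (32.1 and 94.8, 1.397), PEBP4 (3.295 and 10.7, 1.31) and TEX19, a germline gene (6.202 and 20.3, 1.43). Lower were ZNF618 (34.5 and 15.6, -1.23), the orphan receptor gene GPR27 (8.88 and 3.602, -1.24), LRRN1 (23.4 and 11.1, -1.14), FAM110B (15.5 and 7.08, -1.16), PRMT6, an arginine methyltransferase that acts on histones (76.2 and 36.7, -1.17), PDSS1, which builds the side chain of coenzyme Q (11.01 and 4.87, -1.17), PPP1R10, a regulator of protein phosphatase 1 in the nucleus (136 and 58.6, -1.34), and SFPQ, an RNA-binding splicing factor (205 and 105, -1.098). In each of these genes the lower of the 2 libraries still held over 100 reads. PPP1R10 and SIPA1L2 had C4-2B ENZR ratios close to 0 (-0.13 and 0.01), while PDE2A (1.35), SDC4 (0.81) and FAM110B (-0.77) were past 1.5-fold in the same direction there. PDE2A was at a low level in that line, at 0.566 in the control and 2.97 in the knockdown library.

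**Figure D2:**
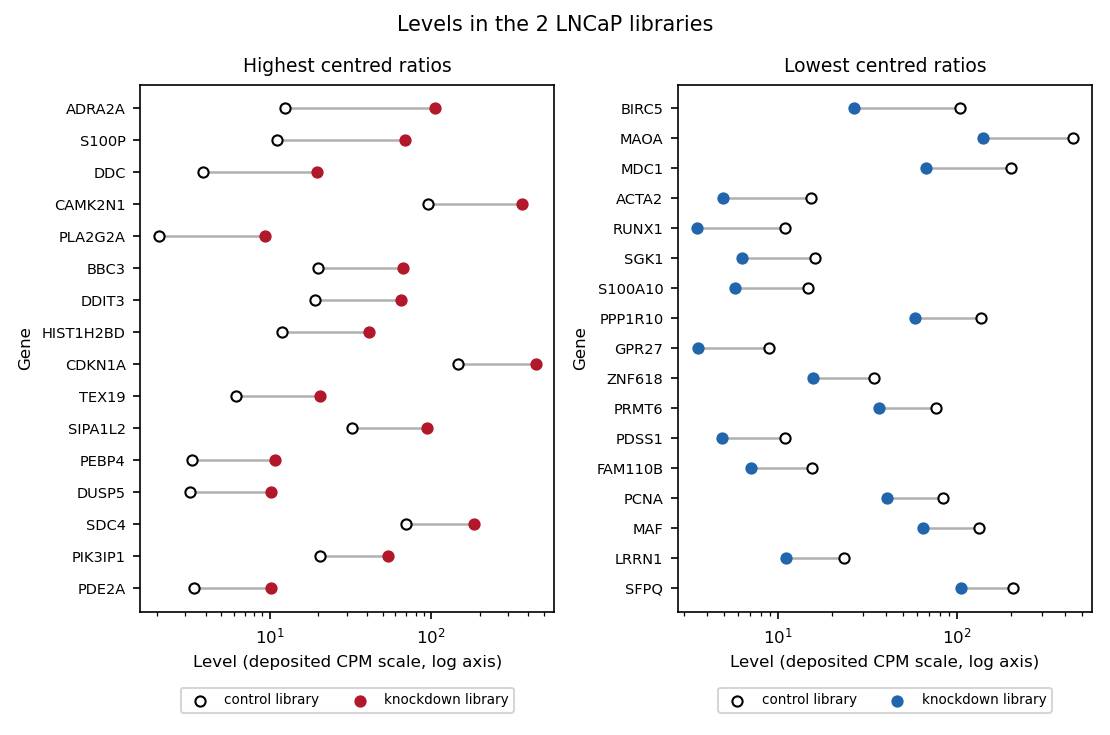
Level of each gene in the control library (open points) and the knockdown library (filled points) on the deposited CPM scale (log axis), for the genes with the highest (left) and lowest (right) centred ratios among those with a mean level of at least 5, with multi-copy, readthrough and antisense genes left out. ADRA2A spans 12.4 to 106 and BIRC5 104 to 26.6.

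A few extreme values cannot be assigned to a single gene. The cancer-testis gene GAGE2B went from 0.282 to 26.95 while its family member GAGE4 went from 26.4 to no read, and GAGE12F stood at 75.6 and 84.8. TBC1D3C (97.5% of its 50-base words occur in another gene), GTF2IP1 (96.5%), RGPD6 (100%) and the readthrough symbol BLOC1S5-TXNDC5 (98.5%) share their sequence in the same way. BLOC1S5-TXNDC5 was at 2.84 and 13.4 (1.77) and BLOC1S5, one of the genes it joins, at 5.55 and 1.47 (-1.54). PCNA-AS1 (-1.36) lies opposite PCNA, and with the strand of the reads not given in the sources used here, reads of the pair cannot be told apart.

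Genes of the ATF4 response were higher in the knockdown library, with higher medians among its stress regulators than among its genes of amino acid metabolism. Of 53 measured genes (54 listed), 12 were 1.5-fold higher (22.6%, against 2.34% of all genes) and none lower, and the median was 0.26. The 8 transcription factors had a median of 0.72 and the 12 stress effectors one of 0.65. DDIT3, which encodes CHOP, was at 19.1 and 64.6 (1.57), ATF3, another stress-induced factor, at 65.5 and 149.98 (1.05), the stress regulator NUPR1 at 213 and 452 (0.95), and CEBPG, a partner of ATF4, at 75.3 and 152 (0.87). ATF4 itself was at 453 and 732 (0.56), whereas ATF5 was at 20.99 and 19.6 (-0.22). Among the effectors all 12 lay above 0. GDF15, a stress-induced cytokine, was at 786 and 1999.8 (1.21), TRIB3, which restrains ATF4, at 94.4 and 197 (0.92), SESN2, an inhibitor of mTORC1, at 38.3 and 77.9 (0.87), and DDIT4, which also restrains mTORC1, at 394 and 785 (0.86). CHAC1, which degrades glutathione, was at 19.6 and 36.5 (0.73) and PPP1R15A, which reverses the block on translation, at 10.6 and 19.8 (0.71).

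The metabolic arm of the same response stood closer to the rest of the genes. The 12 measured genes of amino acid and single-carbon synthesis had a median of 0.09, with ASNS, the asparagine synthetase gene, highest at 192 and 334 (0.66, with 40.6% of its 50-base words shared with pseudogenes), MTHFD2, a mitochondrial folate enzyme, at 149.7 and 230.5 (0.49), PHGDH, the first enzyme of serine synthesis, at 510.1 and 585 (0.06) and PSPH, its last enzyme, at 61.2 and 57.4 (-0.22). The 9 amino acid transporters had a median of 0.05 and none passed 1.5-fold. SLC7A11, the cystine transporter, was at 81.1 and 86.4 (-0.04), SLC7A5, which carries large neutral amino acids, at 310.1 and 381 (0.16) and SLC3A2, the shared heavy chain of both, at 188 and 236 (0.19). The 12 cytosolic tRNA synthetases had a median of 0.19, from EPRS at -0.02 to SARS at 186 and 312 (0.61). In C4-2B ENZR the medians of the 5 subgroups were 0.56 for the transcription factors, 0.73 for the effectors, 0.30 for synthesis, 0.51 for the transporters and 0.28 for the synthetases. Whether the transporters differ between the lines was not tested, and SLC7A11 (1.21 in C4-2B ENZR) and SLC6A9, a glycine transporter gene (0.14 in LNCaP and 0.87 in C4-2B ENZR), had the widest gaps.

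ATF4 binds with a C/EBP partner to the element TGATGNAA, and 3 promoters that hold it are shown because their genes stand for the effector, metabolic and factor groups. Each window has 100 bases of the RefSeq promoter table (GRCh38.p14), written 5′ to 3′ on the gene's strand, with the element, on either strand, in capitals. It begins 209 bases before the start site in CHAC1, 68 in ASNS and 191 in ATF3.
CHAC1 (chr15:40953221-40953320, plus strand): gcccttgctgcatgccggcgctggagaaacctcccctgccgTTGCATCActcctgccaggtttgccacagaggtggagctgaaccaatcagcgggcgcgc
ASNS (chr7:97872423-97872522, minus strand): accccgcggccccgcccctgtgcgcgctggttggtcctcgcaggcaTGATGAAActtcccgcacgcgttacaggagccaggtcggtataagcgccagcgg
ATF3 (chr1:212565170-212565269, plus strand): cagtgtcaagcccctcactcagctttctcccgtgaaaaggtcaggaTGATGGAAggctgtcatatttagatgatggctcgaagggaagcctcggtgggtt
Only 42 of the 53 measured genes had a promoter in that table, under 80%, so a check of how often the group holds the element is void and no share is compared. Among those 42 the 13 that hold the element had a median of 0.21 and the 29 without it one of 0.32. The letters describe the windows and do not show binding.

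Targets of p53 were higher as well, most of all those that stop the cell cycle. Of 32 measured genes 11 were 1.5-fold higher (34.4%, against 2.34% of all genes), 1 was lower, and the median was 0.32. Within them the 8 cell cycle arrest genes had a median of 1.00. CDKN1A, which encodes the cyclin-dependent kinase inhibitor p21, was at 147 and 443 (1.45, interval 1.42 to 1.497), GADD45A, a growth arrest gene, at 18.98 and 49.96 (1.22), BTG2, an antiproliferative gene, at 42.6 and 100.2 (1.08) and CCNG1, which encodes cyclin G1, at 161 and 338 (0.93). PLK2, a polo-like kinase gene of the same group, was lower (29.6 and 19.7, -0.70). Of the 10 apoptosis genes 3 passed (30%, against 2.34% of all genes). They were BBC3, which encodes the death protein PUMA (19.8 and 66.8, 1.57), PMAIP1, which encodes NOXA (9.55 and 17.9, 0.71), and TP53INP1 (105 and 188, 0.70), while BAX was at 31.1 and 33.99 (-0.01). ZMAT3, an RNA-binding target of p53, was at 23.5 and 60.7 (1.197). MDM2, the ubiquitin ligase that p53 induces against itself, was at 97.4 and 111 (0.06). GDF15 and SESN2 stand in both the ATF4 and the p53 list, so the lists are not separate evidence.

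The BCL2 family, which sets the threshold of mitochondrial cell death, had a median of 0.27 over 14 measured genes, with 0.32 for its 4 survival genes and 0.23 for its 10 death genes. Besides BBC3 and PMAIP1 the survival gene BCL2L2 was past 1.5-fold (43.3 and 73.8, 0.62), in all 21.4% of the family against 2.34% of all genes. MCL1 was at 171 and 244 (0.38) and BCL2, at low level, at 1.15 and 0.982 (-0.25). Of 24 genes that control entry into S phase (median -0.13) 2 were 1.5-fold higher (8.33%, against 2.34% of all genes) and 1 lower (4.17%, near the 3.34% of all genes). Both higher genes are inhibitors of cyclin-dependent kinases, CDKN1A and CDKN1B, which encodes p27 (85.6 and 146, 0.63). RBL1, the pocket protein p107, was lower (21.8 and 15.6, -0.59). The 12 cyclins, kinases and E2F factors of that list had a median of -0.19, with CCND1, which encodes cyclin D1, at 419 and 574 (0.32) and E2F3 at 48.3 and 38.6 (-0.45).

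The genes of mitosis were lower in the knockdown library without exception among those listed. All 42 measured genes lay below 0, 19 were 1.5-fold lower (45.2%, against 3.34% of all genes), and the median was -0.56. BIRC5, which encodes survivin, a member of the chromosomal passenger complex and an inhibitor of apoptosis, was the extreme with 104 and 26.6 (5874 and 1301 reads; -2.05, interval -2.18 to -2.01). Its 3 partners in the complex were less far from their controls, with AURKB, the kinase of the complex, at 38.7 and 29.1 (-0.54), INCENP at 87.4 and 68.9 (-0.47) and CDCA8 at 45.1 and 35.6 (-0.47). Of the 9 entry kinases, cyclins and factors 6 were 1.5-fold lower (66.7%, against 3.34% of all genes). CCNB1, the main mitotic cyclin, was at 144 and 76.7 (-1.03), CDC25C, the phosphatase that activates CDK1, at 14.5 and 7.39 (-1.02), PLK1 at 117 and 64.5 (-0.99) and FOXM1, which drives transcription of these genes, at 160.03 and 114 (-0.62), whereas CDK1 was at 176 and 172 (-0.17). Among the spindle and kinetochore genes KIF20A, a kinesin of the central spindle, was lowest (93.3 and 54.6, -0.90), followed by the checkpoint kinase gene BUB1B (75.7 and 48.1, -0.78). ANLN, whose product anillin acts in cytokinesis, was at 106 and 61.4 (-0.92), MKI67, the proliferation marker Ki-67, at 185 and 144 (-0.50) and TOP2A, the topoisomerase, at 135 and 122 (-0.28). In these bulk libraries fewer cells in mitosis and less RNA per mitotic cell cannot be told apart. PRC1 shares 50.7% of its 50-base words with other genes, so its value (-0.62) is less certain.

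Promoters of mitotic genes are known for a cell cycle homology region, TTTGAA or close to it, just before the start site, through which the DREAM complex can repress them. Windows of 4 of the lower genes are shown with TTTGAA, on either strand, in capitals, again from the RefSeq table (GRCh38.p14) on the gene's strand. The motif begins 29 bases before the start site in PLK1 and CCNB2 and 23 in BUB1B. HMMR, which encodes a spindle-associated protein (58.3 and 37.6, -0.75), holds it 2 times in a row, and the copy nearer the start site begins 22 bases before it.
PLK1 (chr16:23678813-23678912, plus strand): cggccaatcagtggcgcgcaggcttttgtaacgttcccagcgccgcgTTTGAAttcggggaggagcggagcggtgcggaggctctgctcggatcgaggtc
CCNB2 (chr15:59105070-59105169, plus strand): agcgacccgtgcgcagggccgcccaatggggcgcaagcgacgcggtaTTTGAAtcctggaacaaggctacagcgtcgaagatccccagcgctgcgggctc
BUB1B (chr15:40160999-40161098, plus strand): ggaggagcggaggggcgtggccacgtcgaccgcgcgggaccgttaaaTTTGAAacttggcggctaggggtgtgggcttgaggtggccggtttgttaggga
HMMR (chr5:163460563-163460662, plus strand): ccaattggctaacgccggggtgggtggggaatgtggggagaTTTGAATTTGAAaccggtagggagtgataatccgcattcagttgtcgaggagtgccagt
Of the 35 mitosis genes with a promoter in the table, 23 hold TTTGAA in the 300 bases around the start site (65.7%), against 15.4% of all 27305 promoters of that length in the table. That background is wider than the measured genes, of which 10846 had a promoter there. The median ratio of the 23 was -0.58 and that of the 12 without it -0.54. A match is a description of the sequence and shows no binding.

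DNA replication genes were lower too. Of 43 measured genes 42 lay below 0, 10 were 1.5-fold lower (23.3%, against 3.34% of all genes) and none higher, and the median was -0.47. PCNA, the sliding clamp of the replication fork, was at 83.8 and 40.7 (-1.16, interval -1.25 to -1.102). The 6 subunits of the replicative helicase were at -0.64 (MCM2), -0.65 (MCM3), -0.76 (MCM4), -0.76 (MCM5), -0.52 (MCM6) and -0.69 (MCM7), with MCM5 going from 79.01 to 50.8. PRIM2, a primase subunit gene, was at 16.7 and 10.3 (-0.78), and RFC5, a subunit of the clamp loader, at 39.03 and 26.2 (-0.69). CDT1, the licensing factor that loads the helicase, was the exception at 109 and 136 (0.19). None of the 7 genes of nucleotide supply passed 1.5-fold (median -0.41), and RRM2, a subunit of ribonucleotide reductase, stood at 121 and 123 (-0.11) and TK1, thymidine kinase, at 172 and 137 (-0.47).

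Of 39 DNA repair genes 37 lay below 0, 4 were 1.5-fold lower (10.3%, against 3.34% of all genes) and the median was -0.29. MDC1, the mediator that gathers repair proteins at broken DNA, stood far from the others with 200.2 and 66.99 (11363 and 3273 reads; -1.700, interval -1.77 to -1.66). Among the next were FANCD2 (82.4 and 55.9, -0.69) and FANCI (106 and 73.9, -0.65), the pair that is ubiquitinated at DNA crosslinks. BRCA1 was at 49.1 and 37.4 (-0.52). Of the 12 genes of break signalling 10 lay below 0 (median -0.21), among them H2AFX, the histone that is phosphorylated around breaks (297 and 218, -0.58). The kinase gene ATM (38.4 and 44.2, 0.06) and RNF168, a ubiquitin ligase gene (61.9 and 84.7, 0.31), were the exceptions. In C4-2B ENZR the medians of mitosis, replication and repair were -0.16, -0.15 and -0.10, and MDC1 was at -1.19 there.

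Tubulins, the subunits of microtubules, formed the list with the lowest median after the small RUNX list. All 13 measured genes lay below 0 and 7 were 1.5-fold lower (53.8%, against 3.34% of all genes), with a median of -0.64 and a range from -0.90 (TUBB4A) to -0.40 (TUBB3). TUBB was at 2279.9 and 1584 (-0.66), TUBA1B at 1718 and 1099 (-0.78), TUBA1C at 496 and 329 (-0.72), TUBB4B at 610.4 and 429 (-0.64) and TUBB6 at 44.5 and 25.8 (-0.90). TUBG1, whose product nucleates microtubules at the centrosome, was at 169 and 131 (-0.50). The genes share sequence (25.6% of the 50-base words of TUBA1B and 22.1% of those of TUBA1A occur elsewhere), so their values are not independent of each other. In C4-2B ENZR the median of the list was -0.23.

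**Figure D3:**
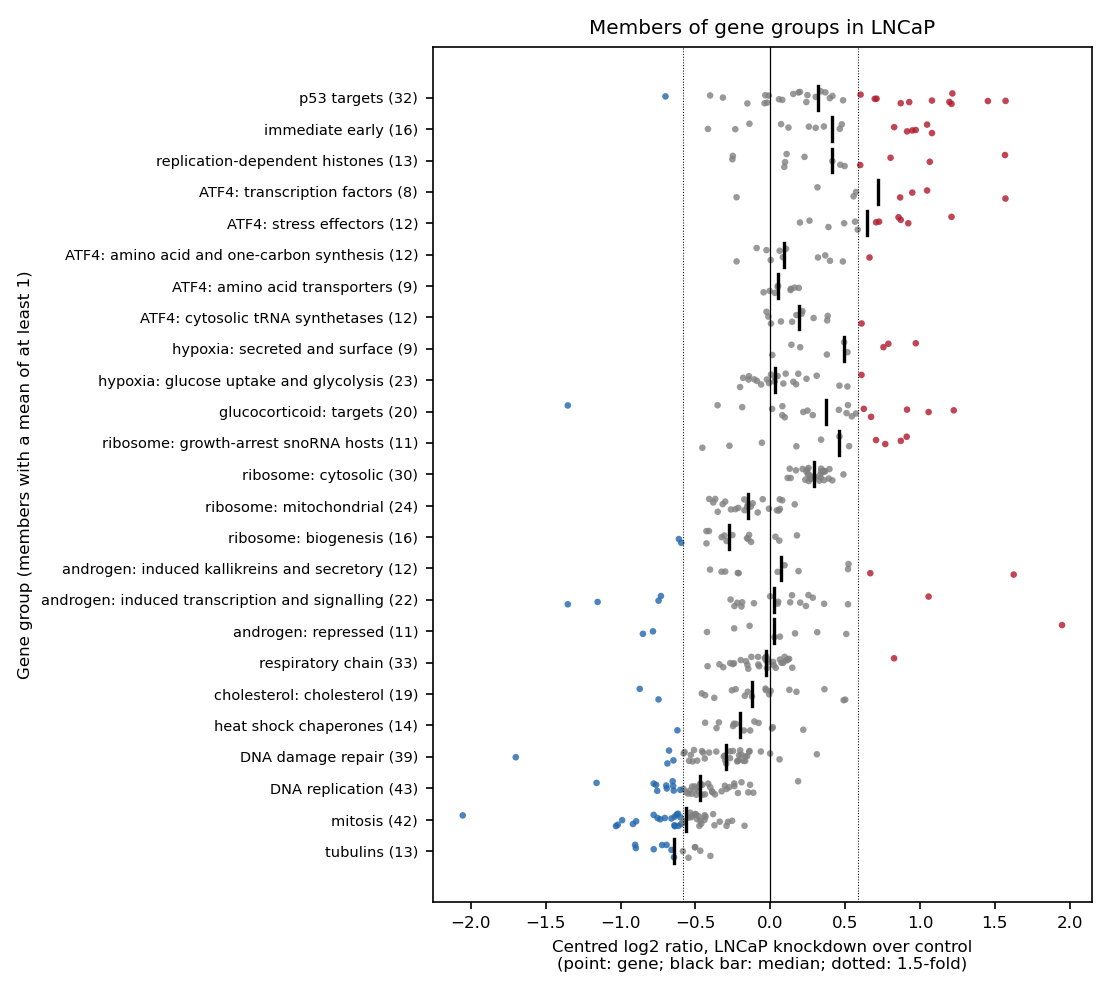
Centred log2 ratio of every measured member (points) of 25 gene groups in LNCaP, with the group median as a black bar and 1.5-fold as dotted lines; the number of members is in parentheses. All points of mitosis and tubulins lie below 0 and all points of the cytosolic ribosome lie above 0.

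Replication-dependent histone genes, whose RNAs are made in S phase and mostly lack a poly(A) tail, had a median above 0 in the list, which holds a part of the histone genes. The 13 measured genes of 18 had a median of 0.42, 11 lay above 0 and 4 were 1.5-fold higher (30.8%, against 2.34% of all genes). Over all 27 measured symbols that begin with HIST the median was 0.099, inside 0.2, with 17 above and 10 below 0 and the same number, 4, past 1.5-fold. HIST1H2BD was at 11.96 and 41.2 (1.57), HIST2H2BE, less certain because its cluster holds duplicated genes, at 37.6 and 87.7 (1.07), HIST1H2AC at 8.33 and 16.9 (0.80) and HIST3H2A at 6.89 and 12.1 (0.60). In C4-2B ENZR the median of these genes was -0.29. The median in LNCaP was 0.18 with a pseudocount of 5 and 0.11 without the filter on low values. The 5 listed genes that did not pass the filter included HIST1H4C (0.282 and 0.184). The labels do not say how RNA was selected for the libraries. Whether the reads of these genes came from S phase RNAs or from RNAs with a poly(A) tail was not tested.

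Of the genes of the translation machinery, the 30 listed for the cytosolic ribosome had a median of 0.29, from 0.12 (RPS15) to 0.49 (RPL3, 3087 and 4757), and none passed 1.5-fold. The list does not hold every protein of that ribosome, and outside it RPS28 was at 597 and 488 (-0.43) and RPL13A, which has close pseudogene copies, at 1122 and 1878 (0.61), both chosen after their values were seen. Of the 24 mitochondrial ribosomal protein genes 18 lay below 0 (median -0.15, where 46.7% of all genes lay above 0) and none passed 1.5-fold. Of 16 ribosome biogenesis genes 13 lay below 0 (median -0.27). NOP56 (128 and 91.9, -0.61) and NOP58 (63.4 and 45.8, -0.59), core proteins of box C/D snoRNA particles, were 1.5-fold lower (3.34% over all genes). NCL, the gene of nucleolin, was at 724 and 592 (-0.43). The host genes of snoRNAs that accumulate in growth-arrested cells had a median of 0.46 over 11 genes, and 4 were 1.5-fold higher (36.4%, against 2.34% of all genes). Over all 16 measured symbols that begin with SNHG, some of them in the list, the median was -0.13, with 2 past 1.5-fold in each direction. GAS5 was at 90.4 and 163 (0.71), ZFAS1 at 59.8 and 121 (0.87), SNHG8 at 44.7 and 84.4 (0.77) and EPB41L4A-AS1, an antisense gene whose reads cannot be told apart from those of its partner, at 15.6 and 33.3 (0.91). The 30 cytosolic ribosomal protein genes had a median of 0.24 in C4-2B ENZR, and the sign of their median was positive in LNCaP under every scaling tried (medians from 0.23 to 0.43).

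Genes of androgen signalling, on which LNCaP cells depend, differed in both directions around a median of 0.01. Of 61 measured genes 4 were 1.5-fold higher (6.56%, against 2.34% of all genes) and 6 lower (9.84%, against 3.34%). FOXA1, a pioneer factor gene, was at 416 and 421 (-0.12), HOXB13 at 485 and 415 (-0.36) and GATA2 at 325 and 476 (0.41). None of the 10 receptor, pioneer and cofactor genes passed 1.5-fold. Among the 12 kallikrein and secretory genes induced by androgen the ratios ran in both directions, with KLK3 at 0.05, KLK2, its neighbouring kallikrein, at 397 and 376 (-0.21), KLK4, the kallikrein of enamel and prostate, at 280.1 and 489 (0.67), TMPRSS2, the androgen-induced protease, at 1137 and 1334 (0.10) and AZGP1 at 149 and 235 (0.52).

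Of the 22 androgen-induced genes of transcription and signalling 1 was 1.5-fold higher and 4 lower (2.34% and 3.34% over all genes), with a median of 0.02. TSC22D3, a leucine zipper gene that glucocorticoids induce as well, was at 158 and 362 (1.06). Among the lower were SGK1, a kinase gene of steroid response (16.03 and 6.32, -1.35), the transcription factor gene MAF (132 and 64.7, -1.15) and C1orf116 (206 and 136, -0.73). The classical target FKBP5 stood at 413 and 398 (-0.19). Among 11 measured androgen-repressed genes of 17 the median was 0.03. DDC, which belongs to that group, was the highest, while ACKR3, a chemokine receptor gene, was at 54.2 and 32.6 (-0.85) and IGFBP3 at 4.74 and 2.66 (-0.78). None of 6 measured genes of steroid conversion passed 1.5-fold, and SRD5A1, a steroid reductase gene that serves dihydrotestosterone synthesis, was at 25.8 and 39.4 (0.46). OPRK1, UGT2B17 and AKR1C3 were among the genes below the filter.

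Genes that answer glucocorticoids or the FOXO factors, listed together with genes of those receptors and factors, were higher in most cases. Of 24 measured genes 21 lay above 0, 5 were 1.5-fold higher (20.8%, against 2.34% of all genes) and SGK1 lower, with a median of 0.29. The receptor and factor genes among the 24 were NR3C2 (0.01), FOXO1 (0.20), FOXO3 (0.29) and FOXO4 (0.40), all above 0 and under 1.5-fold. Besides PIK3IP1 and TSC22D3 the phosphatase gene DUSP1 was at 28.9 and 60.8 (0.91). CDKN1B and PER1 were the other members past 1.5-fold, and TXNIP, which binds thioredoxin and restrains glucose uptake, was at 346 and 565 (0.57). NR3C1, the glucocorticoid receptor gene, did not pass the filter, and FOXO3 was at 154 and 206 (0.29). Immediate early genes, which respond within minutes to handling and to growth signals, had a median of 0.41 over 16 measured genes of 21, and 6 were 1.5-fold higher (37.5%, against 2.34% of all genes). IER5 was at 18.2 and 40.3 (0.97), JUND at 299 and 636 (0.95) and JUNB at 131 and 255 (0.83), while MYC was at 382 and 357 (-0.23) and EGR1 at 1.83 and 1.33 (-0.42). FOS and FOSB were below the filter. The median of the immediate early list in C4-2B ENZR was 0.08.

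Of the inflammatory programmes the NF-kB list was higher and the interferon response was not. The 13 measured NF-kB targets of 17 had a median of 0.29. BIRC3, a caspase and ubiquitin regulator (17.4 and 39.2, 0.99), TRAF1 (1.004 and 2.99, 0.86) and IRF1 (18.5 and 33.8, 0.70) were 1.5-fold higher, against 2.34% of all genes. TNFAIP3, the feedback inhibitor A20, was at 13.5 and 13.4 (-0.15). The 18 measured interferon response genes had a median of -0.05. OAS3 was lower (58.1 and 37.4, -0.76), and so was IFITM1 (9.48 and 5.69, -0.78, with 32.0% of its 50-base words shared). The 10 antigen presentation genes had a median of 0.20 with none past 1.5-fold, and HLA-B stood at 152 and 212 (0.34).

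Over 42 genes of hypoxia and glycolysis the median was 0.14, with 6 genes 1.5-fold higher (14.3%, against 2.34% of all genes) and none lower, and the roles within the list had unlike medians. The 9 measured hypoxia genes that encode secreted or surface and mitophagy proteins all lay at or above 0.01 with a median of 0.49. VEGFA, the vascular growth factor gene, was at 229 and 493 (0.97), ANGPTL4, an inhibitor of lipoprotein lipase, at 4.41 and 9.25 (0.79), ANKRD37 at 4.53 and 9.25 (0.76) and BNIP3L, a mitophagy receptor gene, at 155 and 243 (0.52). Of the 10 regulators and hydroxylases P4HA1, which hydroxylates collagen prolines, was at 134 and 305 (1.05), the histone demethylase gene KDM3A at 55.2 and 103 (0.75) and HIF1A at 109.6 and 159 (0.40). The 23 glycolysis genes had a median of 0.03, with ALDOC past 1.5-fold (98.8 and 166, 0.61) and with LDHA at 1012 and 1115 (0.01), PGK1 at 749 and 788 (-0.06) and SLC2A1, the glucose transporter, at 58.5 and 71.6 (0.15).

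In the endoplasmic reticulum stress list 21 of 24 genes lay above 0 (median 0.21). DNAJB9, a cochaperone induced by IRE1 signalling, was at 11.6 and 23.9 (0.84), HERPUD1, of protein degradation at that organelle, at 95.7 and 172 (0.70) and HSPA5, the chaperone BiP, at 777 and 1217 (0.51). PDIA6, a disulfide isomerase gene, went the other way, at 271 and 151 (-0.97). Cytosolic heat shock chaperones had a median of -0.20 over 14 measured genes, at the limit of 0.2, and 1 of them was 1.5-fold lower (7.14%, against 3.34% of all genes). That gene, HSPH1, was at 186 and 133 (-0.62), HSP90AA1 at 1498 and 1283 (-0.36) and HSPB1 at 1658 and 2121 (0.22). Antioxidant genes of the NRF2 list stood at a median of -0.02 over 19 genes. Only HMOX1, heme oxygenase, passed 1.5-fold (19.3 and 36.9, 0.77), where 2.34% of all genes were higher. FTH1, the ferritin heavy chain, was at 2243 and 3685 (0.58) and NQO1, a quinone reductase of this set, at 166 and 169 (-0.11). Autophagy and lysosome genes had a median of 0.11 over 23 genes. GABARAPL1 (62.4 and 115, 0.74) and WIPI1 (19.4 and 34.8, 0.68), both of autophagosome formation, were 1.5-fold higher (2.34% over all genes). The lysosomal channel gene MCOLN1 (14.7 and 9.68, -0.69) was 1.5-fold lower (3.34% over all genes).

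In the mitochondrion, where the MAOA protein sits, respiratory chain genes were close to all other genes. The median over 33 nuclear-encoded subunits was -0.03, and 1 was 1.5-fold higher (2.34% over all genes). COX7C, a small subunit of cytochrome c oxidase, was at 155 and 303 (0.83) and at 0.65 in C4-2B ENZR, whereas its complex partners COX5A (-0.03), COX4I1 (0.09) and COX6C (0.15) were not apart. The 38 measured genes of cholesterol and fatty acid synthesis had a median of -0.01, with 2 of them 1.5-fold lower (3.34% over all genes). The synthase gene FASN, which builds palmitate, stood at 2244 and 2663 (0.11).

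The remaining lists concern cell shape, identity and developmental signals. ACTA2, the smooth muscle actin gene, was at 15.3 and 4.95 (-1.58) and MYL9, a myosin light chain gene, at 62.02 and 32.03 (-1.07), but the 28 measured actin, SRF and YAP genes had a median of 0.02, with ACTG1 at 1885 and 3074 (0.57) and the YAP targets CYR61 and LATS2 at 0.56 and 0.30. Of 3 measured RUNX genes, which regulate lineage decisions (median -1.02), RUNX1 was at 10.9 and 3.52 (-1.53), its binding partner CBFB at 53.9 and 28.8 (-1.02) and RUNX2 at 8.09 and 9.86 (0.12). The 9 measured Hedgehog genes of 15 had a median of -0.27, from GLI2 (2.01 and 0.921, -0.78), a transcription factor of the pathway, to its co-receptor gene CDON (36.6 and 58.6, 0.53). In C4-2B ENZR that list stood at 0.16. Epithelial and luminal genes were at a median of -0.01 over 15 genes, with CLDN4, a tight junction claudin, higher (205 and 436, 0.95) and CDH1, E-cadherin, at 806 and 1002 (0.18). The 8 measured mesenchymal genes of 15 had a median of 0.16 and none passed 1.5-fold, with VIM, the gene of vimentin, at 76.6 and 107 (0.35). Of 14 neuroendocrine genes 3 passed the filter and none of these was past 1.5-fold, with SYT4 at 1153 and 1091 (-0.21) and ENO2 at 34.6 and 52.8 (0.46).

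Over the 33 lists, against a median of -0.02 for all genes, 8 had a median at least 0.2 above 0 and 7 at least 0.2 below, with the same sign under every scaling. The higher lists were the ATF4 response, p53 targets, the BCL2 family, replication-dependent histones, glucocorticoid and FOXO targets, endoplasmic reticulum stress, immediate early genes and NF-kB targets. The lower lists were DNA replication, mitosis, DNA repair, heat shock chaperones, Hedgehog, tubulins and RUNX. Without centring these counts were 15 and 4. Several of these lists came inside 0.2 under another choice: the ATF4 response (0.196) and endoplasmic reticulum stress (0.15) with both libraries brought to an equal sum, and DNA repair (-0.16), heat shock chaperones (-0.07) and Hedgehog (-0.13) without centring. With a pseudocount of 5 the histones (0.18), endoplasmic reticulum stress (0.19) and heat shock chaperones (-0.19) did so, and without the filter on low values the histones (0.11), Hedgehog (-0.16) and RUNX (-0.15). Hedgehog was also inside with a mean of at least 5 (-0.13), and heat shock chaperones with recomputed TMM (-0.19), with size factors (-0.195) and with the length and GC classes (-0.16). The p53, BCL2 family, glucocorticoid and FOXO, immediate early, NF-kB, replication, mitosis and tubulin lists stayed beyond 0.2 under every alternative tried. All lists were chosen with earlier results of these data known, so the tally describes them and is no test. Some higher lists also share genes past 1.5-fold and are not separate evidence. BBC3 and PMAIP1 stand in the p53 and BCL2 family lists. The immediate early list shares BTG2 with p53, ATF3 with ATF4 and DUSP1 with glucocorticoid and FOXO targets.

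Side by side with C4-2B ENZR, where the same ratio was formed within that line's own table, most genes past 1.5-fold in LNCaP had the same sign in the other line but a ratio under 1.5-fold there. Of 13114 genes measured in both, 270 were 1.5-fold higher in LNCaP, 189 in C4-2B ENZR (1.44% of these genes) and 46 in both, which is 17.0% of the LNCaP genes and 24.3% of the others. For lower genes the numbers were 412, 108 (0.824%) and 32, or 7.77% and 29.6%. Of the 270 higher genes 230 lay above 0 in C4-2B ENZR (85.2%, against 51.6% of all genes measured in both), and of the 412 lower genes 329 lay below 0 (79.9%, against 48.4%). No library is shared by the lines, but each has 1 library per group, and the difference between the lines was not tested. The cell cycle groups were further from 0 in LNCaP (mitosis -0.56 against -0.16, tubulins -0.64 against -0.23), where MAOA itself was at -1.802 against -0.57, while the stress effectors of ATF4 were at 0.65 against 0.73. Line and drug both differ between these comparisons and cannot be told apart, and the labels name no batch. The labels also do not state whether both lines received the same MAOA hairpin. Read depth differed as well. C4-2B ENZR had 23479051 reads (control) and 23679869 reads (knockdown), against 52550452 and 52012696 in LNCaP. Whether hairpin or depth affects the side by side values was not tested.

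**Figure D4:**
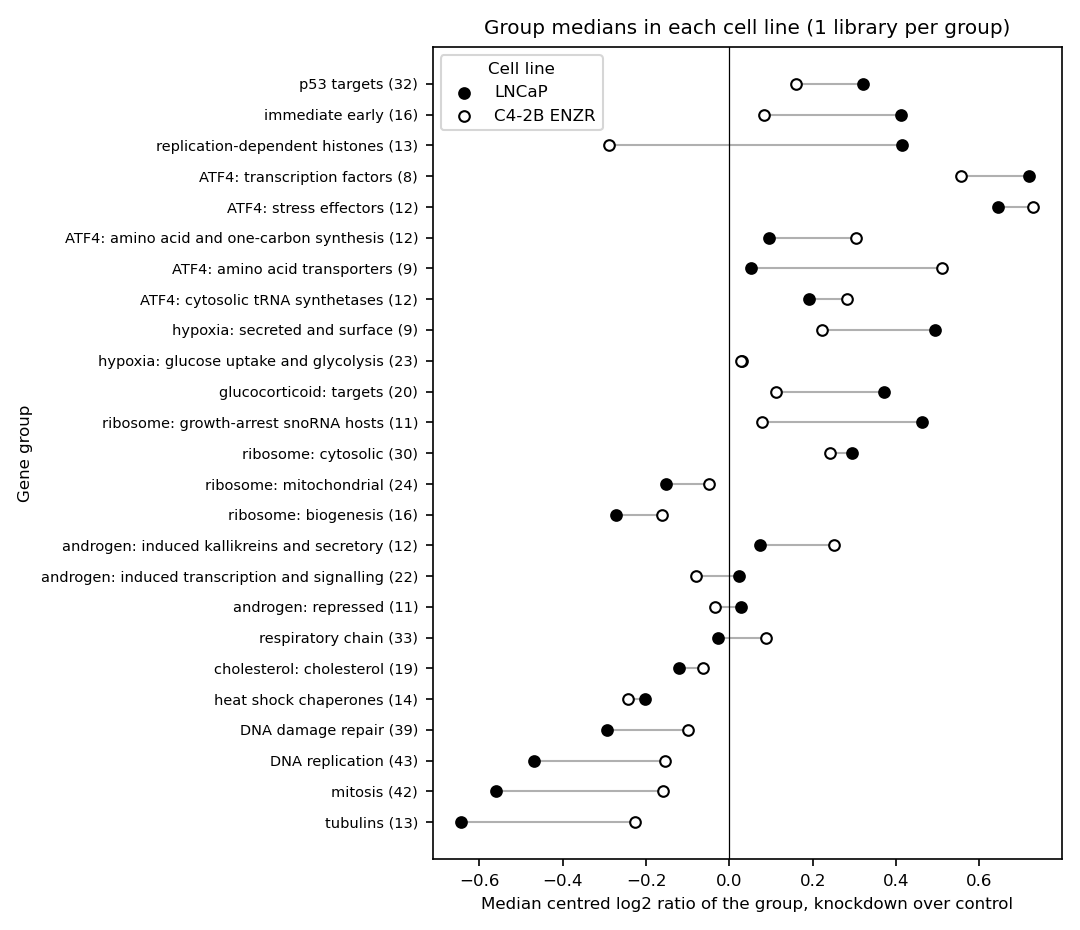
Median centred log2 ratio of 25 gene groups in LNCaP (filled points) and C4-2B ENZR (open points), each computed within its own table from 1 library per group. Mitosis and tubulins lie further below 0 in LNCaP, and replication-dependent histones lie on opposite sides of 0, at 0.42 and -0.29.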

How the data were processed

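Total RNA was sequenced as single reads of 50 nt, per the labels' protocols. Per the submitters' processing notes, Bowtie2 2.1.0, RSEM 1.2.15 and edgeR were used with hg19. A gene annotation was not given in the sources used here. In all, the authors deposited 1 table per line, normalized separately. The C4-2B ENZR values were read as the CPM that the authors deposited. The LNCaP values that the authors deposited were treated as a signal on that scale, because the knockdown column sums to 1064501, above what plain CPM allow. The control column sums to 925958. Every value (100%) came out as a whole number of reads within 0.01 read, so whole reads were recovered. With 1 library per group no count test can be made within LNCaP (0 residual degrees of freedom), and none was used. The deposited scaling of knockdown over control exceeded that of plain CPM by 0.20 on the log2 scale, from a source not given.

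Ratios, centring and exact (Clopper-Pearson) 95% intervals were computed in Python 3.11.15 with numpy 2.4.6, pandas 2.3.3 and scipy 1.17.1. TMM and size factors were recomputed in edgeR 4.0.16 and DESeq2 1.42.0 (R 4.3.3) for scaling only. The scripts were tested on simulated data. Nothing in the labels shows separate cultures. The 33 lists (914 genes, all matched, 5 through synonyms) and the members were chosen with earlier results of these data known. Named genes were the 20 highest and 20 lowest with a mean of at least 5, the extreme, most abundant and 1.5-fold members of each list, and MAOA, MAOB and KLK3, apart from a few named for their role. Some genes that this rule covers are not reported here, and counts of list members include them. A list is called higher or lower where its median is beyond 0.2 with the same sign under every scaling. The 28 symbols turned into dates are not named, and a gene linked to the Y chromosome was left out. Shared 50-base words were counted in GENCODE 29 transcripts. RefSeq promoters (GRCh38.p14, 250 bases before to 50 after the start) matched 10846 of 13785 measured symbols.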

Additional observations from a re-analysis of the deposited data

Results flagged for a closer look

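DUSP1 and HIST1H2AC were singled out because their ratios were past 1.5-fold in opposite directions in the 2 lines, with 1 library per group in each. DUSP1, which encodes a phosphatase that switches off MAP kinases, was at 28.9 in the LNCaP control and 60.8 in the LNCaP knockdown (centred log2 ratio 0.91), and at 11.2 and 6.26 in C4-2B ENZR (-0.75). The histone gene HIST1H2AC was at 8.33 and 16.9 in LNCaP (0.80) and at 4.37 and 2.03 in C4-2B ENZR (-0.82). The difference between the lines was not tested in either case.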

How the results depend on the processing

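No paired analysis was possible because each group has 1 library. At the deposited scaling, without centring, 687 genes were 1.5-fold higher and 216 lower, 80 were 2-fold higher and 35 lower, 15 lists stood at least 0.2 above 0 and 4 below, and MAOA was at -1.67, all by construction of the shift of 0.13. With a pseudocount of 5 the gene counts were 163, 181, 26 and 13 and MAOA was at -1.76, and with a pseudocount of 0.1 the 2-fold counts were 95 and 131, since the pseudocount shrinks low genes. With a mean of at least 5, which tests fewer genes, 299 genes were 1.5-fold and 34 were 2-fold lower. With both libraries brought to an equal sum MAOA was at -1.87, and 239 genes were 1.5-fold higher and 570 lower. Recomputed TMM (371 and 384) and size factors (358 and 405), no filter (332 and 522) and leaving out multi-copy and readthrough genes (296 and 436) kept each such count within 1.5 times of 322 and 460. Subtracting medians within 5 classes of transcript length and then of GC content, an alternative chosen after seeing the data, gave 326 and 431, and the medians of the classes lay between -0.045 and 0.007. No list beyond 0.2 changed sign. Of list and subgroup medians over all settings 812 kept their side of 0.2, 26 came inside it and 38 went beyond it. The S100 list went from 0.01 to -0.23 with a mean of at least 5. That filter takes out S100A1, S100A2, S100A14 and ANXA2, with mean levels from 1.16 to 1.39, and leaves S100A13 (-0.23) as the middle member. Counting error limits few values at these depths, and the absence of replicates limits all of them.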

Other observations

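Symbols that begin with the same letters were grouped after the values were seen, over 221 such groups with at least 8 measured symbols. A group defined by letters can hold pseudogenes, antisense and readthrough symbols and genes of another function, and its median is a description only. The 10 symbols that begin with EEF, among them elongation factors but also a kinase, a pseudogene and a readthrough, had the highest median (0.35), with EEF2, which moves the ribosome along the message, at 7648 and 12037 (0.52) and EEF1A1, which delivers aminoacyl-tRNA, at 8219 and 11934 (0.40). The 57 symbols that begin with RPL, pseudogenes included, were at 0.27, and the 45 with RPS, which include the RPS6K kinases, at 0.26. In C4-2B ENZR these 3 groups were at 0.23, 0.23 and 0.22. Of 13 Kruppel-like factor genes (KLF) 12 lay above 0, with a median of 0.21 and none past 1.5-fold.

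On the lower side stood the symbols that begin with MCM (11 of 11 below 0, -0.55), which include genes outside the replicative helicase, with TUBA (8 of 8, -0.55), with NOP (8 symbols, -0.49) and with HOXA (8 symbols, -0.38), of which HOXA5 was at 5.16 and 2.74 (-0.85) and HOXA13 at 1.87 and 3.07 (0.37), with NUP, mostly nucleoporins (20 of 21 below 0, -0.24), and with CCT, mostly subunits of the chaperonin that folds tubulin and actin (9 of 10 below 0, -0.24). The group of 8 symbols that resemble the mitochondrial ribosomal RNA (MTRNR, -0.42) cannot be read as nuclear genes, since their sequence is near that of the mitochondrial genome.

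A few genes of RNA-binding proteins beside SFPQ, chosen after their values were seen and no measure of that class, were HNRNPM, a splicing regulator (218 and 122, -0.96), GEMIN5, which brings small nuclear RNAs to the SMN complex (17.4 and 9.03, -1.01), and POP1, of RNase P and RNase MRP (25.6 and 13.02, -1.06). In C4-2B ENZR these 3 were at -0.26, -0.27 and -0.05.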
